A study of Bos taurus with 30 samples.

Results

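Membrane transporters and channels move ions, nutrients and metabolites across membranes. In peripheral white blood cells (PWBCs) of heifers, 53 genes whose description holds such a term were followed. Of these, 6 are grouped here as named for channels or transport without being membrane carriers themselves. The other groups follow the family or description of a gene, and a place in them does not show transport across a membrane. All 53 were chosen from the part used here of the gene list that supplements the study, 1630 genes in order of their Ensembl identifier. A gene entered when its description held "solute carrier", "transporter", "channel" or "ATP binding cassette", when it held none of "zinc finger", "kinase", "ubiquitin" and "receptor", when it was on none of the study's lists of changed genes in enriched gene ontology categories, and when it exceeded 1 CPM (counts scaled to library size) in 5 or more of the 30 libraries. Of the 57 genes whose description fitted, 2 fell away for the word "receptor", 2 for being on such a category list and 0 for a low level. The count table held 27607 genes, of which 14018 passed the same limit on CPM. The choice therefore used no value of the comparisons directly, but it leaves out changed genes that fell in an enriched category, and the counts of changed members below are counts after that removal. A changed gene outside those categories stayed a member.

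Blood came from 5 estrus-synchronized crossbred beef heifers (Angus and Simmental, a little over a year old), named A to E here, and each heifer gave 1 library for each vein and time. Coccygeal (tail) vein blood was processed at 1 h, and jugular (neck) vein blood at 1 h, at 3, 6 or 8 h, and at 24 h, all tubes being kept at 4 °C until the cells were pelleted. The 15 libraries of 3 to 8 h could not be tied to a single hour or heifer here and are described without a test. PWBCs are a mixture of lymphocytes, monocytes and granulocytes, so that a level in them is a mean over cell types, and fewer cells of a type cannot be told apart from less RNA per cell.

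Solute carriers (SLC genes) are grouped into families by sequence and carry one substrate or a small set of substrates, often coupled to a gradient of sodium or protons. ATP binding cassette proteins use ATP directly, and ion channels open a pore through which ions pass down their gradient. In leukocytes such proteins supply amino acids and sugars, load the secretory and antigen-processing compartments, and set the calcium, chloride and zinc content of cytosol and organelles.

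The 30 libraries held 12412619 to 19492274 counts, so that 3 counts correspond to 0.154 to 0.242 CPM. The 53 members together took 0.256% of the counts at 1 h in jugular blood (SD 0.00447, n = 5) and 0.263% at 24 h (SD 0.00974, n = 5). T cell (CD4), B cell (CD79A) and monocyte (CD14) markers were present in every library, and defining markers of neutrophils and red cells were not analysed here because no identifier was paired with them.

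The level of the members spanned a wide range. Per kb of the listed transcript, SLC44A2, a choline transporter family member, was highest at 198 CPM per kb over the 15 libraries of known vein and time, and TAP2, a subunit of the peptide transporter that feeds MHC class I molecules, followed at 140 CPM per kb. KCTD12 came next at 58.3 CPM per kb. The lowest were SLC6A2, the noradrenaline transporter, at 0.809 CPM per kb, KCNMB4, a regulatory subunit of a calcium-activated potassium channel, at 0.945 CPM per kb, and the magnesium transporter gene NIPA1 at 0.953 CPM per kb. These lowest levels rested on 26 to 230 counts per library for SLC6A2, 28 to 88 for KCNMB4 and 10 to 31 for NIPA1. In CPM at 1 h, 2 members exceeded 100 CPM, 13 lay between 50 and 100 CPM, 22 between 10 and 50 CPM and 16 below 10 CPM, and SLC44A2 and TAP2 together took 42.7% of the members' counts.

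**Figure D1:**
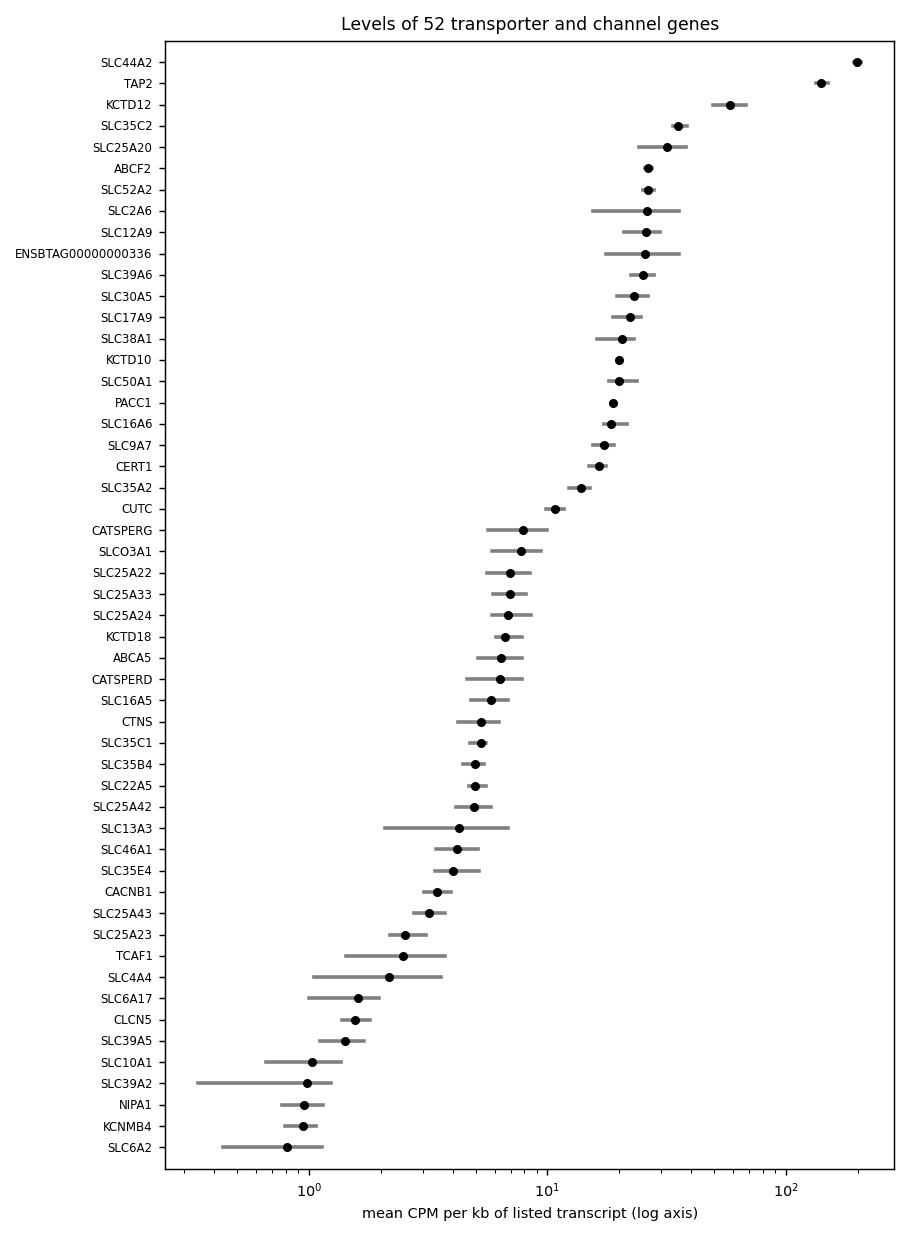
Level of each of 52 of the 53 genes as mean CPM per kb of listed transcript, on a log axis, over the 15 libraries of known vein and time (points), with the range of the 5 heifers' means (grey bars). SLC44A2 and TAP2 lie at 198 and 140 CPM per kb, above all other members, and SLC39A2 has the widest bar, with a 3.61-fold span between heifers.

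After 24 h of storage, of 53 members, 5 rose and 2 fell by the quasi-likelihood test of edgeR at a false discovery rate (FDR, Benjamini-Hochberg over all 14018 genes) below 0.05, which is 13.2% of the members beside 11.9% of all genes tested. The rise took in CATSPERG, SLC6A17, SLC12A9, SLC52A2 and SLC17A9, with log2 fold changes of 0.23 to 0.51, and the fall took in SLC25A24 and SLC38A1, at -0.44 and -0.37. Among all genes, 6.03% passed the test in the upward and 5.88% in the downward direction. With the study's stricter rule (FDR under 0.05 in edgeR and in DESeq2 and an absolute log2 fold change above 0.5), CATSPERG alone was called, 1.89% of the members beside 2.58% of all genes.

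The median log2 fold change of the 53 members was -0.02, beside 0.01 over all genes, and 25 lay above 0 and 28 below. The median of their absolute log2 fold changes was 0.14, the same to 2 decimals as the 0.14 of all genes. At an unadjusted p under 0.05 there were 21 members (39.6%), 11 of them higher and 10 lower, beside 28.1% of all genes. The difference had the same sign in all 5 heifers for 16 members, and 26% of all genes did so. In 0 of the 53 members did the 5 libraries of 24 h lie fully above or fully below the 5 libraries of 1 h, whereas 1.44% of all genes lay fully above and 2.46% fully below.

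**Figure D2:**
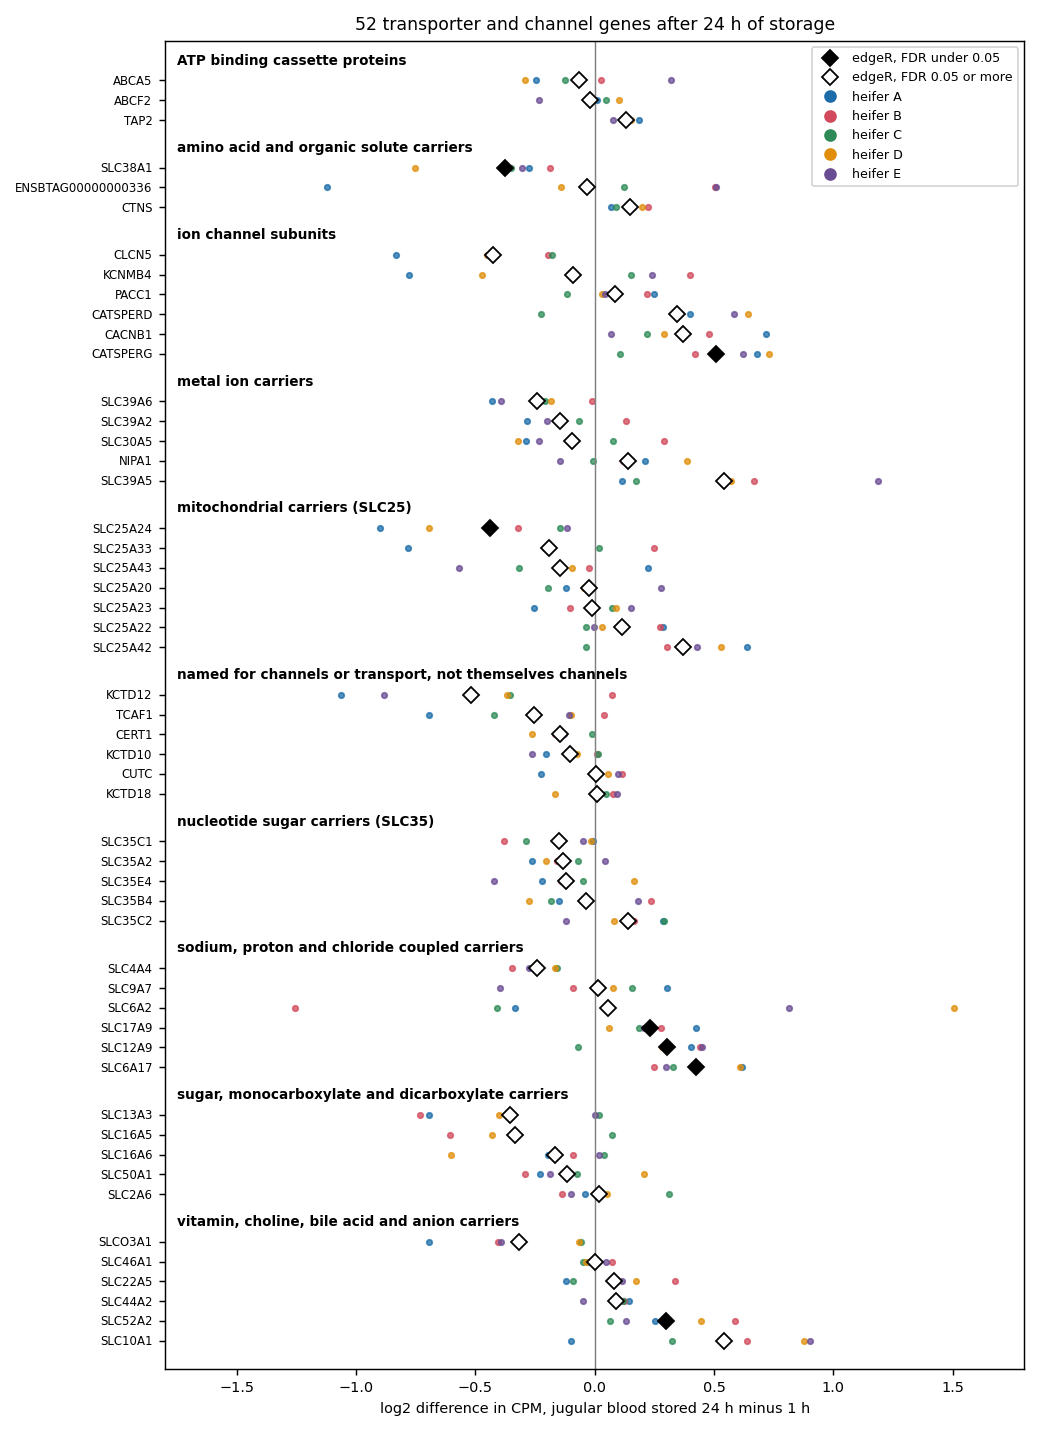
Difference in log2 CPM between jugular blood stored for 24 h and for 1 h for 52 of the 53 members by role, with 1 coloured point per heifer and a diamond for the edgeR estimate, filled where FDR is under 0.05. The 7 filled diamonds lie between -0.44 and 0.51, and CATSPERG, SLC6A17 and SLC38A1 are among the genes with the points of all 5 heifers on the same side of 0.

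Ion channel subunits gave the called gene. CATSPERG (ENSBTAG00000000621, ARS-UCD1.2 chromosome 18, 48153486 to 48177891) encodes an auxiliary subunit of CatSper, the calcium channel of sperm, and it was read in every library of blood cells. Its level in jugular blood of heifers A to E was 23.3, 31.5, 32.7, 15.7 and 21.8 CPM at 1 h and 37.4, 42.1, 35.1, 26.2 and 33.6 CPM at 24 h. Every heifer was higher at 24 h, by the smallest amount in heifer C, while the 2 groups overlapped because heifer D at 24 h lay below heifers B and C at 1 h. The means were 25.0 ± 7.06 and 34.9 ± 5.82 CPM (SD, n = 5 each), with a log2 fold change of 0.51 (SE 0.12 by DESeq2), FDR = 0.0113. It was the single member that kept an FDR under 0.05 with each heifer left out in turn (FDR 0.00959 to 0.0430), and its log2 fold change then ran from 0.45 to 0.61, so that without heifers A, D or E it was no longer called by the stricter rule. In another assembly (ARS-UCD2.0) the gene overlaps LOC132342846, and since the counting did not use the strand, reads of overlapping or antisense genes cannot be told apart.

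The remaining channel subunits did not pass the test. A second CatSper subunit gene, CATSPERD, measured 13.97 ± 4.37 CPM at 1 h against 17.3 ± 2.22 CPM at 24 h (SD, n = 5 each), with a log2 fold change of 0.34, FDR = 0.0964, and it was higher in 4 of 5 heifers. CACNB1, the beta 1 subunit of voltage-gated calcium channels, was higher in 5 of 5 heifers with a log2 fold change of 0.37, FDR = 0.0578, which put it next to the threshold. CLCN5, an endosomal chloride-proton exchanger, was lower in 5 of 5 heifers with a log2 fold change of -0.43, FDR = 0.0793. PACC1, the proton-activated chloride channel and the channel gene with the highest level per kb (18.9 CPM per kb), had a log2 fold change of 0.09, FDR = 0.459. The 6 genes of this role, CLCN5 among them by its description as a channel, had a median log2 fold change of 0.21, and 1 of 6 passed.

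Carriers coupled to sodium, protons or chloride held 3 of the 5 members that rose. SLC6A17 (chromosome 3, 33226163 to 33281966) encodes a vesicular carrier of neutral amino acids known from neurons. It measured 11.0, 10.9, 7.89, 5.34 and 12.2 CPM in heifers A to E at 1 h and 16.9, 13.02, 9.94, 8.20 and 14.99 CPM at 24 h. All 5 heifers were higher at 24 h and kept nearly the same order, so that the groups overlapped although each pair differed, with a log2 fold change of 0.42 (SE 0.15), FDR = 0.0242.

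SLC12A9 (chromosome 25, 35789614 to 35799221), of the cation-chloride cotransporter family, had the highest level of its role per kb (25.8 CPM per kb). It measured 87.4, 98.6, 113, 74.8 and 83.3 CPM at 1 h and 116, 134, 107, 90.9 and 114 CPM at 24 h. It was higher at 24 h in 4 of 5 heifers and lower in heifer C, with a log2 fold change of 0.30 (SE 0.09), FDR = 0.0344.

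SLC17A9 (chromosome 13, 54445511 to 54460268) loads nucleotides such as ATP into secretory vesicles. It measured 52.8, 53.1, 55.2, 48.8 and 61.4 CPM at 1 h and 70.8, 64.5, 62.7, 50.9 and 70.9 CPM at 24 h, higher in 5 of 5 heifers but by little in heifer D. Its log2 fold change was 0.23 (SE 0.09), FDR = 0.0444, the smallest change among the members that passed. The other 3 carriers of this role did not pass. SLC4A4, a sodium bicarbonate cotransporter, was lower in 5 of 5 heifers (log2 fold change -0.24, FDR = 0.129), SLC9A7, an exchanger of the trans-Golgi network, stood at 0.02, and SLC6A2 at 0.06, where single heifers ranged from -1.25 to 1.51.

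**Figure D3:**
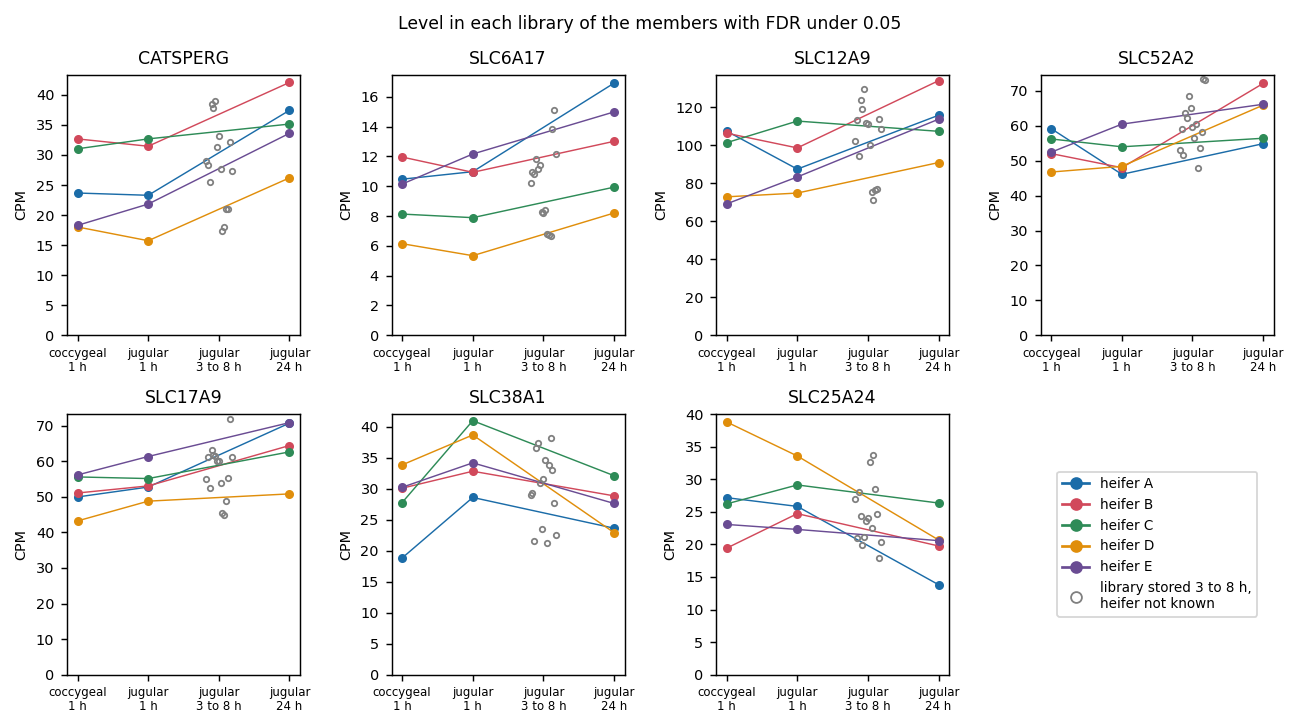
CPM in each library of the 7 members with FDR under 0.05, with lines joining the 3 libraries of a heifer and open circles for the 15 libraries stored for 3 to 8 h. CATSPERG, SLC6A17 and SLC17A9 are higher at 24 h than at 1 h in jugular blood of all 5 heifers, and SLC38A1 is lower at 24 h in all 5 but also lower in all 5 coccygeal libraries at 1 h.

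Carriers of vitamins, choline, bile acids and organic anions had 1 member of 6 that rose. SLC52A2 (chromosome 14, 578057 to 580805) imports riboflavin. It measured 46.1, 48.0, 54.0, 48.4 and 60.5 CPM at 1 h and 54.9, 72.2, 56.5, 65.9 and 66.2 CPM at 24 h, higher in 5 of 5 heifers, with a log2 fold change of 0.30 (SE 0.10), FDR = 0.0408. SLC44A2, the member with the highest level, measured 723 ± 22.6 CPM at 1 h against 769 ± 38.8 CPM at 24 h (SD, n = 5 each), a log2 fold change of 0.09 with FDR = 0.317. SLC10A1, which imports bile acids in the liver, had the largest estimate of the role at 0.54 (SE 0.30) but FDR = 0.0951, on 16 to 64 counts per library. SLCO3A1, an organic anion transporter, was lower in 5 of 5 heifers with a log2 fold change of -0.32, FDR = 0.0784. The carnitine importer gene SLC22A5 and the folate importer gene SLC46A1 stood at 0.08 and 0.00.

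Of the amino acid and related carriers, 1 of 3 fell. SLC38A1 (chromosome 5, 33940564 to 33993305) imports small neutral amino acids such as glutamine together with sodium. It measured 28.6, 32.8, 41.0, 38.7 and 34.2 CPM in jugular blood at 1 h and 23.6, 28.8, 32.1, 22.9 and 27.6 CPM at 24 h. All 5 heifers were lower at 24 h, with a log2 fold change of -0.37 (SE 0.11), FDR = 0.0236. The coccygeal libraries at 1 h, with 18.8, 30.1, 27.7, 33.8 and 30.2 CPM, were also below the jugular library of the same heifer in 5 of 5, and their mean of 28.1 ± 5.65 CPM lay near the 27.0 ± 3.80 CPM of 24 h (SD, n = 5 each). Both differences are taken against the same jugular libraries of 1 h. ENSBTAG00000000336, described as like cationic amino acid transporter 3, had the highest level of the role (25.7 CPM per kb) and ranged from 31.0 to 95.01 CPM at 1 h, with a log2 fold change of -0.03. CTNS, the lysosomal cystine exporter gene, was higher in 5 of 5 heifers by a log2 fold change of 0.15, FDR = 0.212.

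Of the 8 mitochondrial carriers of the SLC25 family, 1 fell. SLC25A24 (chromosome 3, 35038387 to 35096479) is a calcium-dependent carrier that exchanges ATP-Mg for phosphate across the inner membrane. It measured 25.9, 24.7, 29.2, 33.6 and 22.3 CPM at 1 h and 13.8, 19.8, 26.4, 20.7 and 20.6 CPM at 24 h. It was lower in 5 of 5 heifers, most in heifer A, with a log2 fold change of -0.44 (SE 0.13), FDR = 0.0411. Its relative SLC25A23, of the same carrier type, stood at -0.01, and SLC25A20, the carnitine and acylcarnitine exchanger with the highest level of the role (31.7 CPM per kb), at -0.03. SLC25A42, which carries coenzyme A, had a log2 fold change of 0.37 with FDR = 0.0611. The glutamate carrier gene SLC25A22 stood at 0.11.

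Of the remaining roles, 0 members passed. The 5 sugar, monocarboxylate and dicarboxylate carriers had a median log2 fold change of -0.17 and ranged from -0.35 for SLC13A3, a sodium-coupled dicarboxylate importer gene (FDR = 0.102), to 0.02 for SLC2A6, a lysosomal member of the glucose transporter family. The 5 nucleotide sugar carriers of the SLC35 family, which supply the Golgi, stayed between -0.15 for SLC35C1, the GDP-fucose carrier gene, and 0.14 for SLC35C2, and 0 of 5 reached an unadjusted p under 0.05. The 3 ATP binding cassette genes lay between -0.07 for ABCA5 and 0.13 for TAP2. TAP2 measured 370 ± 26.9 CPM at 1 h against 404 ± 22.3 CPM at 24 h (SD, n = 5 each) and was higher in 5 of 5 heifers, with FDR = 0.113.

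The zinc importer genes SLC39A6 and SLC39A5, among the 5 metal ion carriers, had estimates of opposite sign. SLC39A6 measured 37.2 ± 3.10 CPM at 1 h against 31.7 ± 5.84 CPM at 24 h (SD, n = 5 each), lower in 5 of 5 heifers with a log2 fold change of -0.24, FDR = 0.0684. SLC39A5 had a log2 fold change of 0.54 (SE 0.28), higher in 5 of 5 heifers, with FDR = 0.0873 on 22 to 78 counts per library. SLC39A2 stood at -0.15 and the zinc exporter gene SLC30A5 at -0.09, and neither passed the test.

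The 6 genes named for channels or transport that are not membrane carriers themselves had a median log2 fold change of -0.12, and 0 passed in edgeR. KCTD12, a protein auxiliary to GABA-B receptor complexes and the member of this role with the highest level per kb, measured 85.1, 57.9, 53.2, 52.1 and 76.7 CPM at 1 h and 40.7, 60.9, 41.6, 40.4 and 41.6 CPM at 24 h. It was lower in 4 of 5 heifers and higher in heifer B, with a log2 fold change of -0.52 (SE 0.13), FDR = 0.0792 in edgeR and an adjusted p of 0.00259 in DESeq2. With each heifer left out in turn, the log2 fold change ran from -0.67 to -0.38 and the edgeR FDR from 0.0279 to 0.189. The fit without heifer B, the heifer in which KCTD12 rose, gave the -0.67 and the 0.0279 and was the only one of these to pass. CERT1, which carries ceramide through the cytosol, was lower in 5 of 5 heifers with a log2 fold change of -0.14, FDR = 0.146.

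All 7 passes rested on the pairing, CATSPERG having FDR = 0.290 without it. Those other than CATSPERG also depended on which heifers were included. SLC6A17 passed in 2 of the 5 fits with a heifer left out (those without B or C), and SLC12A9, SLC52A2 and SLC25A24 in 1 (without C), SLC17A9 in 1 (without D) and SLC38A1 in 1 (without B). CATSPERD, SLC25A42 and SLC16A5, a monocarboxylate transporter family gene, passed in edgeR only without heifer C among these fits, and KCTD12 only without B. By the stricter rule, KCTD12 was called without heifer B and SLC25A24 without heifer C, each beside CATSPERG. The count of members passing was 1 without heifer A, 4 without B, 8 without C, 2 without D and 1 without E. In DESeq2, SLC6A17 (adjusted p = 0.0515) and SLC17A9 (adjusted p = 0.0634) did not pass, while KCTD12 did. Without the replicate block, that is, ignoring which libraries came from the same heifer, 0 members and 46 of all genes passed, and 11 members had an unadjusted p under 0.05.

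The transporting ATPases, the pumps of the same gene list, are no members because their description holds none of the 4 terms. Of 13, 3 rose and 4 fell at FDR under 0.05 in edgeR (53.8%, beside 11.9% of all genes), 4 passed in DESeq2, and 0 were called by the stricter rule. ATP2C2 (adjusted p = 0.145), ATP1B1 (adjusted p = 0.0758) and ATP2B2 (adjusted p = 0.0601) did not pass in DESeq2. TCIRG1, a subunit of the vacuolar proton pump, rose from 255 ± 16.3 CPM to 329 ± 28.7 CPM (SD, n = 5 each), a log2 fold change of 0.37, FDR = 0.00569, and its 24 h libraries lay fully above those of 1 h. ATP6V1A, another subunit of that pump, fell with a log2 fold change of -0.23, FDR = 0.0491. ATP2C2, of the secretory-pathway calcium pumps, and ATP9B, of the phospholipid flippase family, rose by 0.43 and 0.26 on the log2 scale. ATP2B2, a plasma membrane calcium pump, ATP1B1, the beta subunit of the sodium pump, and ATP11B, a flippase family member, had log2 fold changes of -0.46, -0.33 and -0.31, and all 3 were lower in 5 of 5 heifers. The number of pumps passing fell to between 1 and 4 with a heifer left out.

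Further genes with 1 of the 4 terms in their description stood on the study's category lists. Of these 15, the choice removed 2, KCNG1 and ENSBTAG00000003661, while the other 13 lie outside the part of the gene list used here and were never candidates, and the description of TRPM6 also holds "receptor". All 15 were selected there by their change in the same samples, by a rule with an absolute log fold change above 0.5. Neither their direction nor their size is independent evidence. Of the 15, 11 rose and 2 fell at FDR under 0.05 in edgeR here, and 9 were called by the stricter rule. Among them the sodium-proton exchanger gene SLC9A5 measured 8.48 ± 2.97 CPM at 1 h against 15.3 ± 3.94 CPM at 24 h (SD, n = 5 each; log2 fold change 0.88), and the ATP binding cassette gene ABCC10 measured 102.6 ± 13.2 CPM and 153 ± 21.4 CPM (0.57). The calcium-activated potassium channel gene KCNN4 stood at 0.51, the calcium channel gene CACNA1S at 0.59 and the chloride channel gene CLCN1 at 0.71. Over the libraries of known vein and time, CLCN1 averaged 10.5 CPM in heifer A but 0.242 CPM, about the level of 3 counts, in heifer D.

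CATSPER4, a pore subunit of the sperm calcium channel, had the largest estimate at 1.04 on 0.662 ± 0.193 CPM at 1 h against 1.32 ± 0.209 CPM at 24 h (SD, n = 5 each). DESeq2 gave no adjusted p for CATSPER4. SLC23A3, SLC15A1 and KCNMB3 rose by 0.74, 0.53 and 0.54 in edgeR but did not pass in DESeq2 (adjusted p = 0.135, 0.0544 and 0.0988). ENSBTAG00000003661, described as SLC35 member F2, rose by 0.50 with FDR = 0.0111 in edgeR. The sodium-calcium exchanger gene SLC8A1 and the magnesium channel gene TRPM6 fell, at -0.68 and -0.61. KCNG1 (0.56, FDR = 0.0687) and KCNE3 (-0.64, FDR = 0.0777), which modify potassium channels, did not pass. Of the 2 genes left out for the word "receptor", the cation channel gene TRPV2 rose by 0.21, FDR = 0.0362, and TRPC4AP stood at -0.01.

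**Figure D4:**
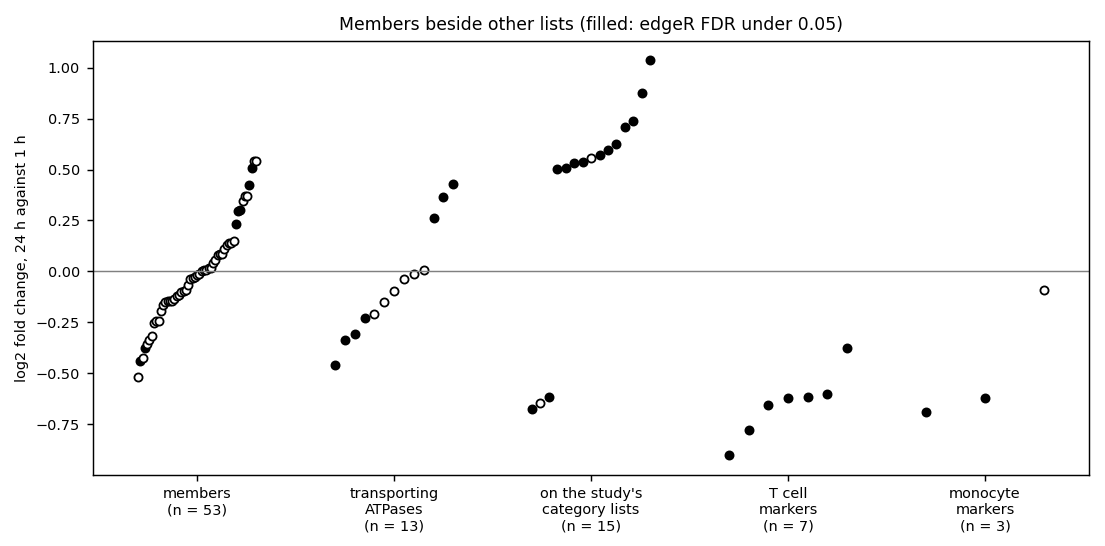
edgeR log2 fold change at 24 h against 1 h of each gene in 5 lists, filled where FDR is under 0.05. The 53 members lie between -0.52 and 0.54, and the 7 T cell markers lie between -0.90 and -0.38. The 15 genes on the study's category lists lie beyond 0.5 in either direction, a limit that the study's selection in the same samples had set.

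Markers of leukocyte types moved over the same 24 h. All 7 T cell markers that could be paired with an identifier, of 11 looked for, were lower with FDR under 0.05 (CD2, CD4, CD8A, CD28, IL7R, TCF7 and BCL11B), and their summed level ranged from 766 to 1188 CPM at 1 h and from 451 to 780 CPM at 24 h. Of these 7, 6 stood on the study's category lists, and TCF7, which did not, had a log2 fold change of -0.38. Of 3 monocyte markers, of 5 looked for, CD14 and VCAN were lower and CD68 did not pass. Their summed level ranged from 304 to 560 CPM at 1 h and from 199 to 353 CPM at 24 h. CD14 and VCAN stood on the study's category lists, and CD68 did not. PRF1 of 2 cytotoxic cell markers and both markers of eosinophils and basophils, IL5RA and GATA2, were lower in edgeR. GATA2 was low and uneven, at 2.94 ± 2.75 CPM at 1 h against 0.559 ± 0.308 CPM at 24 h (SD, n = 5 each), and DESeq2 gave no adjusted p for it. VWF was higher, and the B cell marker CD79A did not pass (log2 fold change 0.18). GATA2 and VWF also stood on those lists, and PRF1, IL5RA and CD79A did not. The listed markers were selected by their change in the same samples, so their direction is no independent evidence. None of the markers tested was at 0 in any library. Their part in the rise or fall of the 7 members was not tested.

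Between the veins, 0 of the 53 members passed at 1 h, and 0% of all 14018 genes did so in edgeR as in DESeq2. The members' log2 fold changes, coccygeal against jugular, had a median of -0.02 and ran from -0.33 to 0.24. At an unadjusted p under 0.05 there were 2 members, beside 1.98% of all genes. These were SLC38A1 (log2 fold change -0.33, SE 0.11, unadjusted p = 0.00336, FDR = 1.00) and SLC9A7 (-0.19, SE 0.10, unadjusted p = 0.0325, FDR = 1.00), both lower in the coccygeal library of 5 of 5 heifers. SLC9A7 measured 37.1, 44.0, 41.2, 35.8 and 39.6 CPM in the jugular libraries and 26.7, 39.5, 39.8, 34.4 and 33.6 CPM in the coccygeal libraries, so the ranges overlapped.

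Many members differed among the 5 heifers. An F test of the heifer terms over the 15 libraries of known vein and time, added after the data were seen, passed an FDR of 0.05 in 22 of 53 members (41.5%), beside 42.1% of all genes. Each heifer's 3 libraries differ in vein or storage time, and they come from tubes drawn on the same occasion, so this test measures a difference between these animals on that day. The ratio of the highest to the lowest heifer mean had a median of 1.39 over the members and a maximum of 3.61. Heifer D had the lowest mean in 20 of 53 members and in 10 of the 22 that passed.

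SLC4A4 had the smallest FDR in this test (2.26e-05), and like TCAF1 and SLC39A2 it is named here after its values were seen. Its 3 libraries of heifer B ranged from 12.6 to 16.1 CPM and those of heifer E from 3.46 to 4.99 CPM, while all other libraries lay between them. TCAF1, a channel-associated factor gene, averaged 20.9 CPM in heifer B and 8.02 CPM in heifer D, FDR = 8.53e-05. SLC39A2 ranged from 0.443 to 0.604 CPM in heifer B and from 1.36 to 2.199 CPM in the other 4 heifers, FDR = 0.000383, on as few as 8 counts per library. SLC13A3 ranged from 23.1 to 24.0 CPM in heifer E and from 5.82 to 19.3 CPM in the others, FDR = 0.000377.

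SLC25A20 averaged 68.6 CPM in heifer B and 43.7 CPM in heifer E, FDR = 0.000142. SLC2A6 ranged from 28.1 to 39.0 CPM in heifer B and from 77.9 to 80.7 CPM in heifer D, FDR = 0.00154. Of the 7 members that passed for storage time, CATSPERG, SLC6A17, SLC12A9 and SLC17A9 also passed among heifers, and heifer D had the lowest mean of each.

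**Figure D5:**
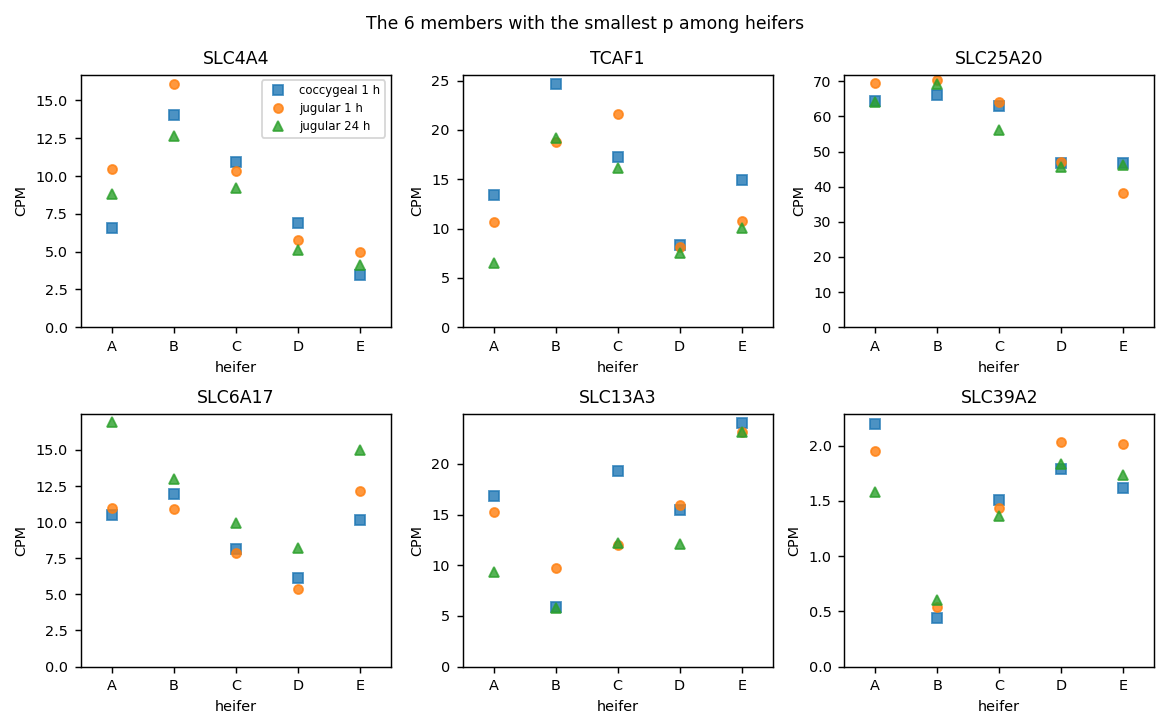
CPM by heifer for the 6 members with the smallest p among heifers, with 1 symbol for each vein and time. The 6 were picked by that p, so a distance between some heifers follows from the choice. In SLC39A2, heifer B stays at or below 0.604 CPM and all others at or above 1.36 CPM. In SLC13A3, heifer E lies above all others, while the ranges of heifers A, C and D overlap.

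In jugular blood stored for 3 to 8 h most members that passed at 24 h had a median between those of 1 h and 24 h. This held for 6 of the 7, and for 27 of all 53 members. The 7 were picked for a difference between 1 h and 24 h, which makes a median between them easier to reach. No share over all genes is given beside these counts, so they are description only and show no course over time. CATSPERG had a lowest, median and highest level of 17.3, 28.4 and 39.0 CPM, and SLC12A9 of 71.0, 109 and 130 CPM. SLC38A1 had 21.3, 31.0 and 38.2 CPM and SLC25A24 17.99, 24.0 and 33.8 CPM. In each of these 4 the 15 libraries spanned most of the levels seen at 1 h and at 24 h.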

How the data were processed

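RNA-seq libraries of PWBCs were analysed. The authors trimmed reads with cutadapt 2.8, aligned them to ARS-UCD1.2 with HISAT2 2.2.0, filtered with SAMtools 1.10, took out duplicates and assigned fragments to Ensembl genes by featureCounts (Subread 2.0.1), without using the strand. They deposited these counts, not normalized, for 27607 genes and 30 libraries. Vein, time and heifer of 15 columns came from the supplementary code, and the other 15 are those of 3 to 8 h.

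Genes with CPM above 1 in 5 or more of 30 libraries were tested in R 4.3.3 with edgeR 4.0.16 (quasi-likelihood, robust, library size scaling, older fitting method) and DESeq2 1.42.0 (Wald), with the heifer as block and 10 libraries per comparison. Standard errors are DESeq2's. Differences of single heifers used a prior count of 2. The steps were tested on simulated data. Same-heifer libraries deviated together (mean r = 0.613 at 24 h against 1 h and 0.651 between the veins, smallest 0.529 and 0.435, different heifers -0.153 and -0.163), the pairing coming from that code. With 2 members DESeq2 gave no adjusted p at 24 h.

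Members, gene lists and the naming rule were chosen with earlier results of these data known. Named were all members with FDR under 0.05, the most abundant per kb and most changed member of each role, the lowest and highest, the 2 with the smallest p between veins, and the genes left out or on the study's category lists; members named beside these are examples chosen after their values were seen. Of the 53 members, 52 matched a symbol of the ARS-UCD2.0 gene list, and 17 overlapped another gene there. A few genes are not reported by name here. Names, positions and lengths came from the supplementary tables. The part of the study's gene list used here ends at 1630 genes. Alternatives were TMM scaling, other thresholds and filters, each tool alone, the newer fitting method, no replicate block, 1 fit of 15 libraries and each heifer left out.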

Additional observations from a re-analysis of the deposited data

Results flagged for a closer look

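Among the 22 members named by the rule, each in 3 groups of 5 libraries, 2 of 66 groups held a library whose gap to its nearest neighbour took up more than 0.71 of the group's range (Dixon's limit for 5 libraries), where chance gives about 1 in 20. KCTD12 in jugular blood stored for 24 h was at 60.9 CPM in heifer B and between 40.4 and 41.6 CPM in the other 4 heifers. SLC2A6 in coccygeal blood at 1 h was at 28.1 CPM in heifer B and between 64.7 and 77.9 CPM in the others, and heifer B also had the lowest jugular libraries, 39.0 CPM at 1 h against 35.5 CPM at 24 h.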

How the results depend on the processing

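TMM scaling, the newer fitting method, no filter, both other filters and 1 fit of 15 libraries each left the member counts within 1.5 times (1 called, 5 or 6 higher, 2 lower, 0 between veins). In the 1 fit of 15 libraries the passing members differed: SLC52A2 (FDR = 0.0551) and SLC25A24 (FDR = 0.0714) did not pass, and CACNB1 (0.0349), SLC25A42 (0.0434) and CLCN5 (0.0451) did. Without the replicate block, 0 members were called, 0 were higher, 0 were lower and 0 transporting ATPases passed. With each heifer left out, called members ranged from 0 to 2, higher members from 1 to 6, lower members from 0 to 2, members between veins from 0 to 0, and transporting ATPases from 1 to 4 beside 7. Without the fold change threshold 5 members were called, with a threshold of 1 there were 0, and with DESeq2 alone 2. DESeq2 in place of edgeR gave 3 higher members. The cause of these changes was not tested, apart from the fewer libraries and the altered thresholds themselves. The members' median log2 fold change at 24 h stayed between -0.05 and 0.01 over the fits with a heifer left out, being above 0 only without heifer A, and that between veins between -0.03 and -0.004. Of 286 values for single named members, 7 changed sign, all with a heifer left out and in members that did not pass: ENSBTAG00000000336 (from -0.17 to 0.25, above 0 without A), SLC9A7 (from -0.058 to 0.11, below 0 at -0.058 without A and -0.021 without C), SLC25A20 (from -0.095 to 0.018, above 0 without C), SLC2A6 (from -0.055 to 0.055, below 0 without C) and SLC6A2 (from -0.35 without D and -0.12 without E, both below 0, to 0.45). At 3 counts, 0.154 to 0.242 CPM, the lowest members were still counted in every library, but their standard errors (up to 0.43 on the log2 scale) exceed most changes of the members.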

Other observations

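Of the 15 libraries stored for 3 to 8 h, 1 stood apart in several members together with monocyte markers. KCTD12 was at 146 CPM there, beside a median of 61.6 CPM over the 15, ENSBTAG00000000336 was at 191 CPM beside 39.1 CPM, and SLC6A2 was at 13.95 CPM beside 4.84 CPM. The same library had the highest CD14 (112 CPM, median 59.2 CPM), CD68 (125 CPM, median 32.4 CPM) and VCAN (513 CPM, median 256 CPM) of the 15, and the highest SLC8A1 (14.7 CPM) and TRPM6 (15.9 CPM). Among the libraries of known time, jugular blood of heifer A at 1 h had the highest ENSBTAG00000000336 (95.01 CPM) and KCTD12 (85.1 CPM) of its group, and also the highest CD14 (89.5 CPM), CD68 (67.9 CPM) and VCAN (403 CPM). It did not have the highest SLC6A2 of that group, which was in heifer B at 8.55 CPM. The part of monocyte content in the levels of these members was not tested.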
